A study of Homo sapiens with 27 samples.

Results

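The nuclear genes that encode the subunits of the oxidative phosphorylation machinery were followed in 22Rv1, DU145 and PC3, human prostate cancer lines, after RIPK2 had been targeted. Members were every symbol of the 3 deposited read count tables that begins with NDUFA, NDUFB, NDUFC, NDUFS or NDUFV and a digit, with UQCR, with COX4 to COX8 or with ATP5, together with SDHA, SDHB, SDHC and SDHD; symbols ending in P and digits, the usual form for pseudogenes, were left out. The pattern used names only and no measured value, but it was set with earlier results of these data known. It gave 90 members of 27546 symbols, and 88 of the 90 were listed in all 3 tables. Of the 90, 81 encode subunits. The other 9 match the name pattern without being subunits: the inhibitor ATP5IF1, the supercomplex factor COX7A2L, the paralogue NDUFA4L2, the near-copies UQCRHL and ATP5MGL, the readthrough transcript ATP5MF-PTCD1, and the non-coding NDUFA6-DT, NDUFB2-AS1 and NDUFV2-AS1. The name pattern leaves out the complex I subunit NDUFAB1, the complex III subunit CYC1 and the electron carrier CYCS.

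The series holds 27 libraries, 9 from each of the lines 22Rv1, DU145 and PC3, in groups of 3. 22Rv1 was grown from a prostate tumour xenograft, and DU145 and PC3 are lines from prostate cancer metastases of brain and bone. In each line, cells with control gRNA 1, labelled WT, were compared with 2 populations labelled RIPK2 knockout, each made with another guide RNA. These were gRNA 1 and gRNA 10 in 22Rv1, and gRNA 2 and gRNA 10 in DU145 and in PC3. No drug, time course or dose is labelled. Whether each population was a clone or a pool, and the guide sequences, are not given in the sources used here, and nothing says that the 3 libraries of a group came from separate cultures, so each p-value measures only the spread between these libraries. Poly-A RNA was sequenced as strand-specific libraries of paired 150-base reads on the DNBseq platform. In bulk RNA, fewer cells of a type and less RNA per cell cannot be told apart.

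Oxidative phosphorylation runs on 5 complexes of the inner mitochondrial membrane. Complex I (NADH dehydrogenase) and complex II (succinate dehydrogenase) feed electrons to ubiquinone, complex III passes them to cytochrome c, and complex IV (cytochrome c oxidase) hands them to oxygen. Complexes I, III and IV pump protons, and complex V (ATP synthase) lets the protons back through its ring of c subunits to drive ATP formation in its F1 head. Most subunits are made from nuclear genes and imported, while a few core subunits are made from mitochondrial DNA, so the complexes are joint products of both genomes. Many of the nuclear genes have promoters with matches to the motifs of NRF1, of ETS factors such as GABPA, and of YY1. Normal prostate epithelium is known for limited oxidation of citrate, and prostate cancer cells for a return to it.

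The libraries held 17958558 to 20650819 counts each, of which members took 0.817% to 1.57%. A count of 3, taken as the floor for calling a gene detected, equalled 0.145 to 0.167 CPM. CPM are counts scaled to a common library total, here after TMM scaling, and fold changes are log2 values from edgeR's quasi-likelihood test, two-sided, with Benjamini-Hochberg adjustment over all genes tested and a threshold of 0.05. The text calls a gene higher or lower, or says that it rose or fell, only where it passed that threshold. Replicate libraries of PC3 lay closer together than those of the other lines, with a common biological coefficient of variation of 3.55% against 14.2% in 22Rv1 and 12.3% in DU145, so smaller differences passed the test in PC3.

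Some libraries were unlike their replicates. In 22Rv1, replicate 3 of gRNA 1 had 16.7% of its counts in mitochondrially encoded genes, against 0.515% to 2.10% in the other 8 libraries of the line. The 0.515% was control replicate 1, against 1.24% and 1.28% in its replicates. In DU145, replicate 3 of gRNA 2 had 2.89%, against 1.75% and 2.12% in its replicates. Counts of members without each library are given in the closing section, and summed mitochondrial levels below with and without the guide libraries named here.

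The targeted gene was checked first. RIPK2 stood at 16.7 CPM ± 1.29 (SD, n = 3) in 22Rv1 control, at 8.69 ± 0.633 with gRNA 1 and at 5.38 ± 0.189 with gRNA 10, falls of -0.94 and -1.63 that passed the test. In DU145 it was 42.4 ± 2.67 in control, 11.8 ± 1.77 with gRNA 2 and 34.8 ± 1.51 with gRNA 10. The DU145 gRNA 2 change was -1.84, and the gRNA 10 change of -0.29 did not pass (edgeR adjusted p = 0.0614), so the group is called the DU145 libraries labelled gRNA 10. In PC3 RIPK2 was 60.4 ± 1.74 in control and fell to 20.6 ± 0.946 and 27.2 ± 1.51. Guide editing can leave a transcript in place, so these levels do not measure the protein. The epithelial keratin gene KRT8 lay between 122 and 294 CPM over the 22Rv1 libraries, between 413 and 1345 in DU145 and between 336 and 953 in PC3. PTPRC, which encodes the leukocyte antigen CD45, reached at most 0.103, 0.0504 and 0.297 CPM in the 3 lines. Other markers set the lines apart. Epithelial CDH1 spanned 285 to 471 CPM in 22Rv1, 14.4 to 34.2 in DU145 and 14.8 to 21.0 in PC3. Mesenchymal VIM spanned 5.83 to 14.3, 594 to 1263 and 1205 to 2180. Luminal KLK3 reached at most 36.6, 0.0499 and 0.0493, and luminal HOXB13 367, 0.0976 and 1527. Fibroblast COL1A1 reached 29.1, 29.9 and 55.9, and endothelial PECAM1 0.106, 0.399 and 9.71.

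Promoter sequences are shown for 4 members whose changes recur below and whose promoters hold a match to the NRF1 motif: ATP5F1C and SDHD, among the largest falls of PC3 gRNA 10, ATP5PF, the largest rise of the DU145 libraries labelled gRNA 10, and NDUFB4, lower in 22Rv1 and higher in DU145. Each is the 180 bases before the RefSeq start (build GRCh38.p14), 5′ to 3′ on the strand of the gene. Capitals mark matches, on either strand, to GCGCATGC for NRF1 (or GCATGCGC), CCGGAAG for ETS factors (or CTTCCGG) and AAGATGGC for YY1 (or GCCATCTT). A run of GCGCATGCGC holds an overlapping NRF1 match on each strand. They lie at chr10:7787997-7788176 on the plus strand for ATP5F1C, chr11:112086693-112086872 on the plus strand for SDHD, chr21:25735055-25735234 on the minus strand for ATP5PF and chr3:120596156-120596335 on the plus strand for NDUFB4. GENCODE 29 lists transcripts of the genes that begin further upstream, so the stretches of ATP5PF, SDHD, ATP5F1C and NDUFB4 overlap the GENCODE gene in whole or in part.
ATP5F1C: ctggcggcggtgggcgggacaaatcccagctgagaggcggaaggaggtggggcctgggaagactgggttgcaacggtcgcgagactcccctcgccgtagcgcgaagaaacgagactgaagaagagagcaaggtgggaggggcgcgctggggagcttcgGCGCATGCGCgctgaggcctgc
SDHD: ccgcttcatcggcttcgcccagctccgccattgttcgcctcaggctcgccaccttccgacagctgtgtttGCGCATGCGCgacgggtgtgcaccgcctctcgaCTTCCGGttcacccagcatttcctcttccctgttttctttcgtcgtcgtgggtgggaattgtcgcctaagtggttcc
ATP5PF: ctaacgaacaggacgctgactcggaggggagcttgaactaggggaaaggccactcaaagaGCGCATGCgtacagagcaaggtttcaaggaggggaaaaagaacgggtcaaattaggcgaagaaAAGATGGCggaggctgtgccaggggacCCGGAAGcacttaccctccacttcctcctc
NDUFB4: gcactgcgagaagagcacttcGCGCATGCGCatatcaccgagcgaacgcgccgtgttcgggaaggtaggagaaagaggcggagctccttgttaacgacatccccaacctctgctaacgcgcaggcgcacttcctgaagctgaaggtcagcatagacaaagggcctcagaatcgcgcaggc

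Of the 90 members, 73 had a promoter of 300 bases in RefSeq, 250 before to 50 after the start. The NRF1 motif was in 14 of the 73 (19.2%), against 4.26% of 15843 promoters of coding genes of the same length. The ETS motif was in 20 (27.4%, against 14.2%) and the YY1 motif in 12 (16.4%, against 3.91%). The SP1 motif GGGCGG or CCGCCC was in 45 (61.6%, against 58.5%). The 73 include the non-coding NDUFA6-DT, NDUFB2-AS1 and NDUFV2-AS1, and the windows of NDUFA6 and NDUFA6-DT overlap. Of the 67 subunits alone, 13 had the NRF1 motif (19.4%), 20 the ETS motif (29.85%), 11 the YY1 motif (16.42%) and 40 the SP1 motif (59.7%). A match describes the letters of the window and is not evidence of binding.

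Levels between genes were compared per kilobase of the main transcript. In the controls, ATP5F1B, the catalytic β subunit of F1, was highest of the subunits in all 3 lines, at 978, 597 and 671 CPM per kb in 22Rv1, DU145 and PC3. In 8 subunits over 40% of the exon bases of the main transcript are shared with another gene on the same strand: NDUFV2 (82.9%), NDUFA7 (75.9%), NDUFB8 (71.7%), ATP5PO (70.3%), NDUFA11 (67.0%), ATP5MF (46.2%), UQCR11 (44.8%) and NDUFA13 (44.1%). Their median control levels were 6.45, 5.51 and 4.53 CPM per kb in the 3 lines, against 119, 70.2 and 72.8 for the other 68 subunits. The ranges overlapped: the 8 reached 74.8, 58.6 and 37.1 CPM per kb, and the lowest of the 68 were at 1.39, 0.455 and 0.365. Counting programs can drop reads that fit more than 1 gene, and the authors' program and its settings are not given in the sources used here, so the levels and changes of these 8 genes are uncertain. Lower shares, as in COX6A1 (30.6%), SDHD (22.2%), ATP5MG (17.6%) and NDUFV1 (16.7%), leave some of the same doubt. Over all exons of the gene and both strands, ATP5ME (61.6%), NDUFS7 (49.1%), NDUFB11 (44.9%) and NDUFA1 (44.5%) also share many bases with other genes. Their values are uncertain too if the counting ignored the strand. NDUFV2, a core complex I subunit that all respiring cells need, had 6 to 21 counts in a 22Rv1 library, 8 to 25 in DU145 and 0 to 5 in PC3, where it was not tested.

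**Figure D1:**
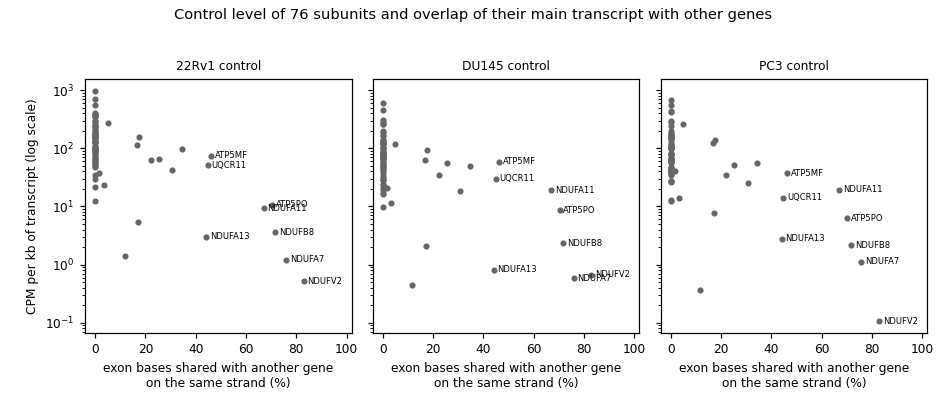
Control level of 76 ubiquitous subunits in each line, in CPM per kilobase of the main transcript (log scale), against the percentage of that transcript's exon bases that another gene shares on the same strand. Each point is 1 subunit and the 8 named points are those over 40%, whose medians of 6.45, 5.51 and 4.53 lie under the 119, 70.2 and 72.8 of the others.

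Isoforms of other tissues were scarce. COX7A1, the muscle isoform of COX7A, had 0 to 1 counts per library and COX8C, a testis isoform, 0 to 4. COX4I2, an isoform known from lung and low oxygen, appeared in the DU145 table alone, with 0 to 1 counts, and COX6A2, of heart and muscle, was not listed. COX6B2, a testis isoform, had 0 to 3 counts in 22Rv1, 9 to 36 in DU145 and 1 to 4 in PC3, and 97.9% of the exon bases of its main transcript are shared with another gene. COX7B2, a testis relative of COX7B, was listed for PC3 alone and is described with that line.

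PC3 had the most members called, mainly as lower, and its smaller spread let smaller differences pass than in the other lines. With gRNA 10, 48 of 83 members tested were lower and 19 higher, where 35.6% of all 14718 genes tested were lower and 37.9% higher. The median member was at -0.18 on the log2 scale, against 0.01 over all genes, and 56 of 83 members lay below 0. With gRNA 2, 36 of 83 members were lower and 18 higher, against 31.5% lower and 32.1% higher of all genes, with medians of -0.11 and 0.01. The changes were small: the median size was 0.34 with gRNA 10 and 0.21 with gRNA 2, against 0.38 and 0.29 over all genes. Both comparisons use the same 3 control libraries. Size separated the lines less than calls did. In tested subunits whose promoters lacked the YY1 motif, the median size in PC3 was 0.34 with gRNA 10 and 0.23 with gRNA 2. It was 0.22 and 0.15 in DU145, and 0.13 with either guide in 22Rv1.

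The falls in PC3 lay mainly in complexes I, IV and V. With gRNA 10, complex I had 20 of 35 tested subunits lower and 5 higher (median -0.24), complex IV 10 of 12 lower and 1 higher (-0.25), and complex V 13 of 17 lower and 3 higher (-0.36). All 5 subunits of the membrane part of ATP synthase were lower (-0.57). Complex III had 4 of 8 higher and 2 lower (0.14), and complex II 2 of 4 in each direction. With gRNA 2 the counts were 15 lower and 6 higher in complex I, 8 lower and 1 higher in complex IV, 9 lower and 4 higher in complex V, and 1 lower and 3 higher in complex III.

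**Figure D2:**
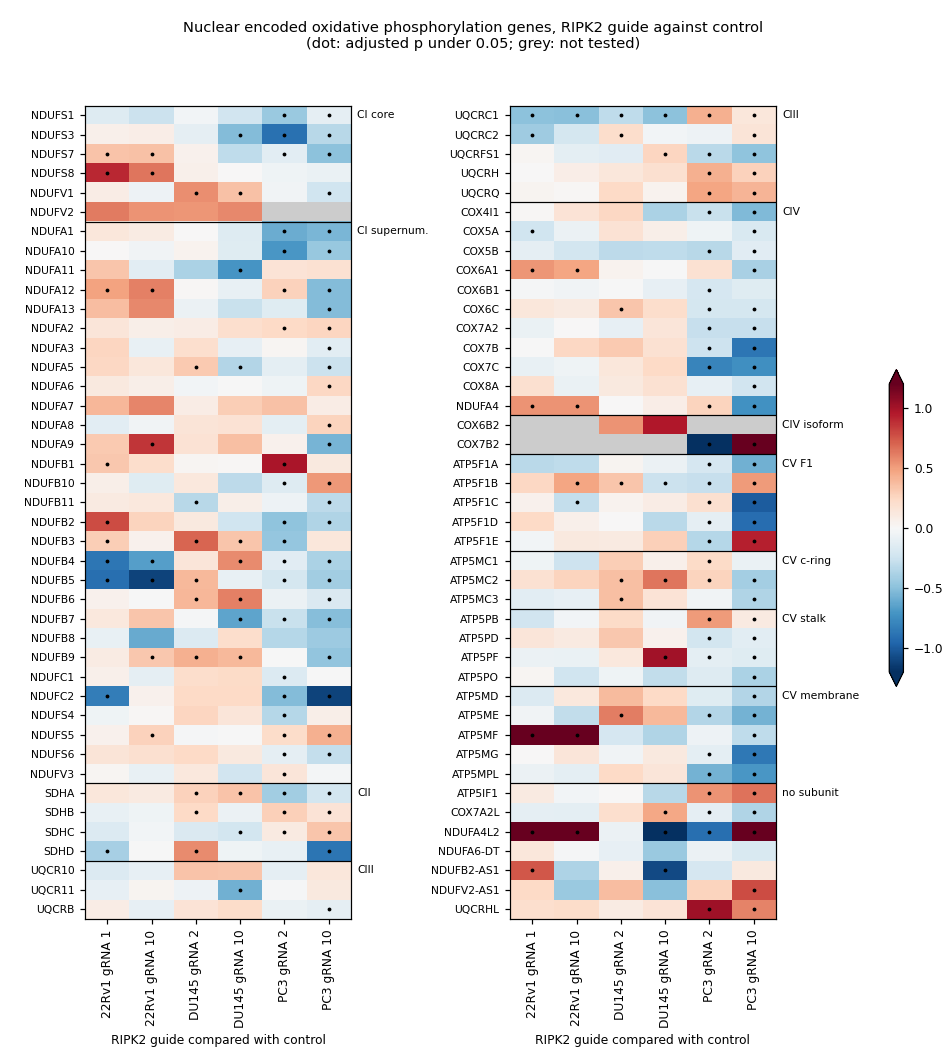
Log2 fold change (colour) of tested members in the 6 comparisons of a RIPK2 guide with the control of the same line, in the order of the complexes. Dots mark adjusted p under 0.05 and grey marks members not tested; the PC3 columns hold the most dots, and over all tested members 36 and 48 were lower and 18 and 19 higher there.

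The core of complex I, which binds NADH and the iron-sulphur clusters, had 4 of 6 tested subunits lower with gRNA 10 in PC3 and none higher. NDUFS3, an early-assembled core subunit of the matrix arm (chr11:47565336-47584562, plus strand), stood at 78.7, 76.5 and 77.1 CPM in the control libraries, at 41.3, 41.7 and 42.2 with gRNA 2, and at 60.1, 60.8 and 63.3 with gRNA 10. The 3 groups did not overlap, and gRNA 2 was the lowest. Log2 changes were -0.89 with gRNA 2 (SE 0.05, edgeR adjusted p = 5.6e-17) and -0.34 with gRNA 10 (SE 0.04, adjusted p = 4.08e-08). NDUFV1, the NADH-binding subunit, was lower with gRNA 10 alone (-0.24; -0.04 with gRNA 2), NDUFS7 was lower with both (-0.13 and -0.49), and NDUFS8 with neither (-0.05 and -0.08). NDUFS1, the largest iron-sulphur subunit, was at -0.44 with gRNA 2 and -0.11 with gRNA 10. The gRNA 2 call of NDUFS7 was lost without control replicate 3 (adjusted p = 0.0581) and without gRNA 2 replicate 1 (0.111) or 2 (0.0632); the gRNA 10 call of NDUFS1 was lost without control replicate 2 (0.0641) or gRNA 10 replicate 1 (0.0786). Without control replicate 2 or gRNA 10 replicate 1, NDUFS8 passed with gRNA 10 (0.0457 and 0.041).

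Supernumerary subunits, which build and stabilise complex I around its core, gave the largest changes of the complex. NDUFC2, of the membrane arm (chr11:78068304-78080219, minus strand), was at 19.4, 20.9 and 18.9 CPM in PC3 control, 12.2, 13.9 and 15.1 with gRNA 2 and 9.04, 8.76 and 9.61 with gRNA 10. Every gRNA 10 library lay under every gRNA 2 library, and these under every control library. The gRNA 10 change was -1.11 (SE 0.08, edgeR adjusted p = 3.61e-13) and that of gRNA 2 was -0.52. Of its main transcript, 17.1% of exon bases are shared with the readthrough gene NDUFC2-KCTD14. NDUFB1 (chr14:92116122-92121917, minus strand), a small membrane arm subunit, was at 23.0, 18.3 and 21.4 CPM in control, 39.8, 37.8 and 45.9 with gRNA 2, and 21.9, 22.7 and 23.4 with gRNA 10. Only its gRNA 2 libraries stood apart, with a rise of 0.98 (SE 0.08, adjusted p = 1.26e-10). NDUFA10, of the matrix side, fell with both guides (-0.70 and -0.46). NDUFB10, a membrane arm subunit of the intermembrane side, moved in opposite directions, with -0.16 with gRNA 2 and 0.52 with gRNA 10.

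Complex II in PC3 was split between its subunits. The flavoprotein SDHA fell from 591, 566 and 588 CPM to 440, 428 and 443 with gRNA 2 and to 499, 483 and 518 with gRNA 10 (-0.41 and -0.22). The iron-sulphur subunit SDHB rose (0.29 and 0.16), as did the membrane anchor SDHC (0.10 and 0.33). The other anchor, SDHD (chr11:112086773-112120013, plus strand), was at 53.0, 46.7 and 49.5 CPM in control, at 47.7, 46.4 and 46.5 with gRNA 2, and at 27.5, 25.6 and 28.1 with gRNA 10. The gRNA 10 libraries alone were set apart, by -0.88 (SE 0.06, edgeR adjusted p = 6.97e-15), while gRNA 2 was at -0.09 (adjusted p = 0.151). The gRNA 2 call of SDHC was lost without control replicate 2 (adjusted p = 0.0639) or gRNA 2 replicate 3 (0.0561), and SDHD passed with gRNA 2 without control replicate 2 (0.0427).

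In complex III of PC3, the core protein UQCRC1 rose from 308, 297 and 295 CPM to 399, 399 and 410 with gRNA 2 and to 332, 318 and 341 with gRNA 10. Neither guide group overlapped the control, with 0.43 for gRNA 2 (SE 0.04, edgeR adjusted p = 6.94e-12) and 0.14 for gRNA 10 (SE 0.04, adjusted p = 0.000912). UQCRC2, the other core protein, was at -0.06 with gRNA 2 and rose by 0.15 with gRNA 10. UQCRFS1, the Rieske iron-sulphur protein, fell with both (-0.32 and -0.49). The small subunits UQCRH (0.43 and 0.27) and UQCRQ (0.47 and 0.41) rose. UQCRHL, a near-copy of UQCRH, rose from 3.89, 3.13 and 2.73 CPM to 6.31, 6.80 and 6.67 with gRNA 2 (1.02) and to 5.13, 4.81 and 4.81 with gRNA 10 (0.59), but reads of UQCRH may be counted there, so its values are uncertain.

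In complex IV of PC3 nearly all tested subunits fell with gRNA 10. COX7C (chr5:86617904-86620962, plus strand), a small membrane subunit, went from 456, 375 and 424 CPM in control to 244, 227 and 254 with gRNA 2 and 262, 227 and 264 with gRNA 10. Both guide groups lay under the control and overlapped each other, at log2 changes of -0.79 with gRNA 2 (SE 0.09, edgeR adjusted p = 9.93e-05) and -0.74 with gRNA 10 (SE 0.09, adjusted p = 0.000115). COX7B fell by less with gRNA 2 (-0.25) than with gRNA 10 (-0.86), and COX4I1, a regulatory subunit, was lower with both (-0.27 and -0.53). NDUFA4, now placed in complex IV, went opposite ways: from 134, 122 and 126 CPM it rose to 152, 150 and 158 with gRNA 2 (0.27) and fell to 78.4, 72.7 and 80.3 with gRNA 10 (-0.72). COX5B was lower with both (-0.33 and -0.14) and COX5A with gRNA 10 alone (-0.18, and -0.05 with gRNA 2). The gRNA 10 call of COX5B was lost without control replicate 1 (adjusted p = 0.0885) or 3 (0.0595) or without gRNA 10 replicate 2 (0.106).

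The exception in complex IV was COX7B2 (chr4:46734827-46909235, minus strand). It had 119, 90 and 106 counts in the PC3 control libraries, 8, 9 and 10 with gRNA 2, and 356, 297 and 322 with gRNA 10. The 3 groups were far apart, gRNA 2 at the bottom and gRNA 10 at the top. It was at -3.54 with gRNA 2 (SE 0.22, edgeR adjusted p = 8.2e-15) and at 1.58 with gRNA 10 (SE 0.10, adjusted p = 9.85e-15), and the guides differed by 5.12, the widest difference of any member.

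ATP synthase changed unevenly in PC3, even within F1. ATP5F1B (chr12:56638175-56646068, minus strand) was at 1238, 1206 and 1260 CPM in control, at 1021, 1019 and 1026 with gRNA 2 and at 1774, 1695 and 1816 with gRNA 10. It was the most abundant member, and its gRNA 2 libraries all lay under and its gRNA 10 libraries all over the control (-0.27, SE 0.03, edgeR adjusted p = 2.8e-08, and 0.51, SE 0.03, adjusted p = 1.44e-14). ATP5F1A, the α subunit, which alternates with β in the head, fell with both guides (-0.20 and -0.58).

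The central stalk of F1 was no more uniform. ATP5F1C, its γ subunit (chr10:7788129-7807815, plus strand), whose promoter stretch is the first one shown, was at 86.2, 82.6 and 81.9 CPM in control, at 97.1, 95.2 and 94.6 with gRNA 2 and at 37.7, 43.1 and 44.9 with gRNA 10. All gRNA 2 libraries were above the control and all gRNA 10 libraries far below it, at 0.19 (SE 0.05, edgeR adjusted p = 0.000656) and -1.0 (SE 0.05, adjusted p = 3.75e-17). ATP5F1D, the δ subunit, fell from 104, 96.1 and 104 CPM to 56.3, 49.7 and 55.5 with gRNA 10 (-0.91), and was at 90.7, 92.4 and 98.4 with gRNA 2 (-0.11). ATP5F1E, the ε subunit (chr20:59025467-59032382, minus strand), went from 154, 134 and 142 CPM down to 118, 105 and 116 with gRNA 2 and up to 293, 245 and 280 with gRNA 10 (-0.34 and 0.93). The subunits of the same head thus moved by between -1.0 and 0.93 with gRNA 10.

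In the membrane part, ATP5MG, the g subunit, was at 231, 213 and 220 CPM in PC3 control, at 202, 194 and 215 with gRNA 2 and at 129, 113 and 125 with gRNA 10 (-0.12 and -0.86). ATP5MPL, a small associated protein, fell with both (-0.57 and -0.70), as did ATP5ME, the e subunit (-0.35 and -0.57). Of the c-ring genes, ATP5MC2 rose with gRNA 2 (0.27) and fell with gRNA 10 (-0.41), ATP5MC1 rose with gRNA 2 (0.23; -0.08 with gRNA 10) and ATP5MC3 fell with gRNA 10 (-0.36; -0.05 with gRNA 2). In the peripheral stalk ATP5PB rose with both, from 145, 135 and 147 CPM to 214, 203 and 192 with gRNA 2 (0.51) and to 151, 147 and 162 with gRNA 10 (0.11). ATP5IF1, which blocks the enzyme when it would run backwards, rose from 53.0, 47.6 and 46.2 CPM to 69.7, 69.3 and 74.0 (0.54) and to 81.7, 74.8 and 74.7 (0.66).

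**Figure D3:**
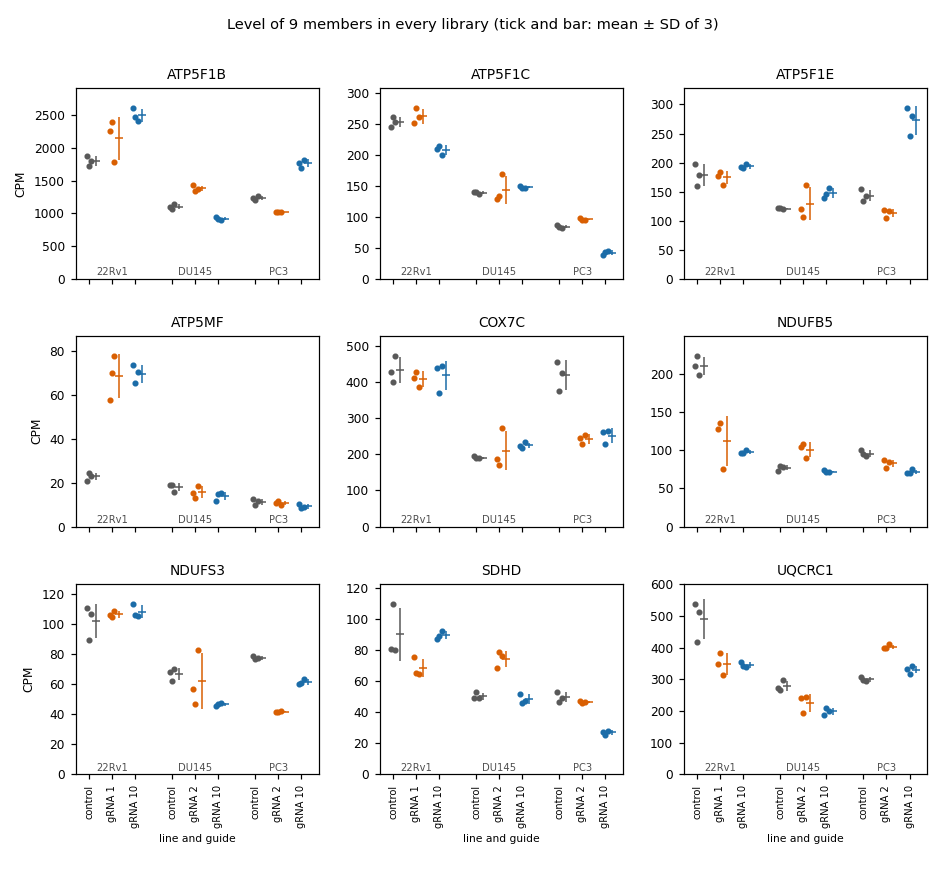
Level (CPM) of 9 members in each library by line and guide, with small points for the 3 libraries of a group and a tick and bar for their mean ± SD. In PC3 the gRNA 10 libraries of ATP5F1C (37.7 to 44.9 CPM) and SDHD (25.6 to 28.1) lie under their controls and those of ATP5F1B (1695 to 1816) and ATP5F1E (245 to 293) over them.

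Summed over genes, the members of PC3 stood at 91.8% of the control with gRNA 2 and at 93.4% with gRNA 10, and neither group overlapped the control libraries. Complex IV was lower, at 1335, 1278 and 1400 CPM with gRNA 2 and 1271, 1103 and 1225 with gRNA 10, against 1773, 1534 and 1658 in control (80.8% and 72.5%). The membrane part of ATP synthase was at 84.9% and 60.4%, and complex III at 112% and 105%. F1 was at 85.4% and 118%, a sum that ATP5F1B leads. Sums weigh abundant genes most, so the gRNA 10 sum of F1 rose although 3 of its 5 subunits fell. In DU145 the sum over all members was at 112% and 101%, and in 22Rv1 at 101% and 103%, and there the guide libraries overlapped the control ones.

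**Figure D4:**
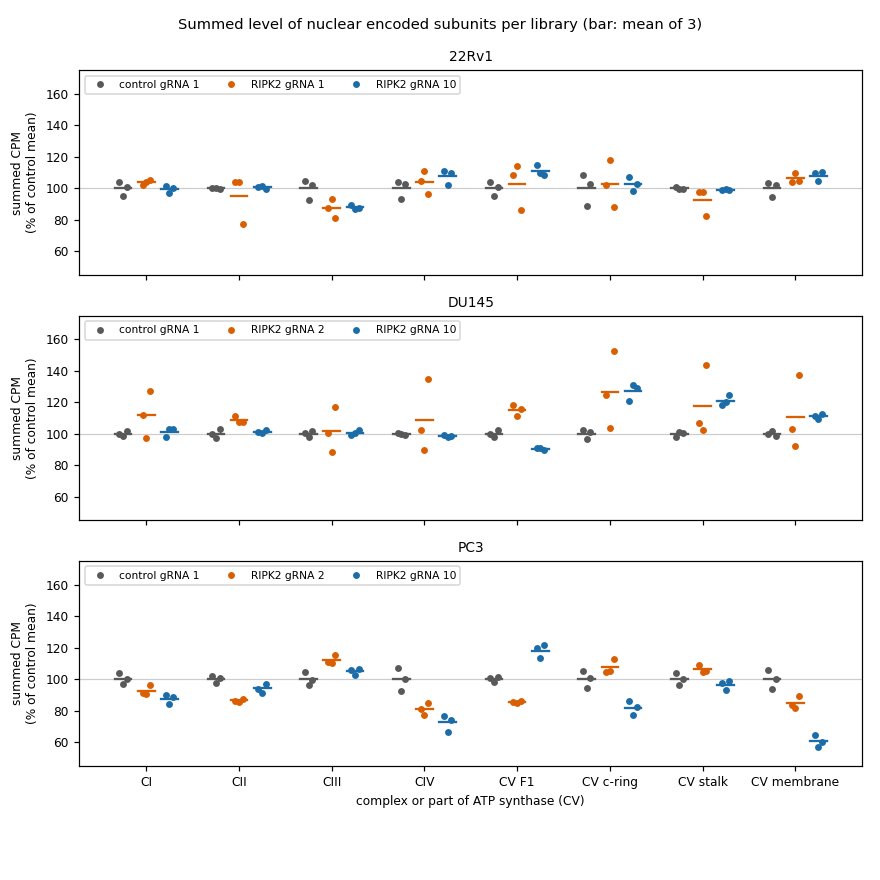
Summed CPM of the subunits of each complex, or part of ATP synthase (CV), in every library as a percentage of the control mean of the line; points are libraries and short bars the means of 3. PC3 complex IV (80.8% and 72.5%) and CV membrane (84.9% and 60.4%) lie under the control.

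In 22Rv1 fewer members passed the test. With gRNA 1, 11 of 83 members were higher and 7 lower, against 25.6% higher and 22.9% lower of all 15198 genes tested. With gRNA 10, 11 were higher and 4 lower, against 20.0% and 20.6%. The medians of 0.06 and 0.01 lay near those of all genes (0.02 and -0.00), and the median size of change was 0.14 and 0.13, against 0.40 and 0.35 over all genes. Without gRNA 1 replicate 3, the library rich in mitochondrial counts, the counts were 15 higher and 9 lower with gRNA 1, and 18 higher and 9 lower with gRNA 10. By complex, complex I had 6 higher and 3 lower of 36 with gRNA 1 and 6 higher and 2 lower with gRNA 10, and no other complex had more than 2 called in a direction.

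ATP5MF, the f subunit of ATP synthase (chr7:99448475-99466331, minus strand), gave the largest rise in 22Rv1. It stood at 20.9, 24.4 and 23.1 CPM in control, at 57.7, 70.1 and 77.6 with gRNA 1 and at 73.5, 65.3 and 70.2 with gRNA 10. The guide libraries overlapped each other and lay far above the control, higher by 1.59 with gRNA 1 (SE 0.12, edgeR adjusted p = 3.58e-06) and by 1.61 with gRNA 10 (SE 0.12, adjusted p = 3.14e-06). It is among the 8 genes with shared exons, its partner being the readthrough gene ATP5MF-PTCD1, which had 2 to 7 counts per 22Rv1 library. NDUFA4L2, a paralogue of NDUFA4 known to be induced in hypoxia, rose from 5.44, 5.0 and 5.95 CPM to 10.9, 10.3 and 17.8 with gRNA 1 (1.25) and to 16.7, 17.9 and 15.3 with gRNA 10 (1.60). The 17.8 is the library rich in mitochondrial counts, and its replicates still lay above all 3 controls.

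The largest falls in 22Rv1 were in complex I. NDUFB5 (chr3:179604690-179627647, plus strand), a membrane arm subunit, went from 210, 223 and 199 CPM to 128, 135 and 74.8 with gRNA 1 and to 96.0, 96.7 and 101 with gRNA 10. All guide libraries lay under the control, by -0.90 (SE 0.18, edgeR adjusted p = 0.00203) and -1.11 (SE 0.18, adjusted p = 0.000636), and the 74.8 is again replicate 3 of gRNA 1. NDUFB4 (chr3:120596309-120602500, plus strand), its neighbour in the membrane arm, went from 261, 264 and 233 CPM to 127, 135 and 152 and to 160, 158 and 161 (-0.87 and -0.66). NDUFC2 fell with gRNA 1 (-0.83), from 12.6, 15.8 and 12.8 to 9.05, 8.32 and 5.83 CPM, and with gRNA 10 was at 15.1, 12.7 and 14.8 (0.05).

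Among the core complex I subunits in 22Rv1, NDUFS8 and NDUFS7 were higher. NDUFS1 was not called with gRNA 10, but without gRNA 1 replicate 3 it was lower (-0.25, edgeR adjusted p = 0.00107). NDUFS8, which carries iron-sulphur clusters, was at 69.2, 58.6 and 73.5 CPM in control, at 119, 124 and 134 with gRNA 1 and at 113, 99.7 and 101 with gRNA 10, with no overlap (0.90 and 0.64, edgeR adjusted p = 6.65e-05 and 0.00072). NDUFS7 was at 117, 83.3 and 112 CPM in control, 124, 126 and 146 with gRNA 1 and 136, 128 and 136 with gRNA 10 (0.34 and 0.35, adjusted p = 0.0488 and 0.0494). The low control, replicate 2, sets it off, and its calls rest on the margin: leaving out control replicate 2 gave adjusted p = 0.121 with gRNA 1 and 0.109 with gRNA 10, and both calls were also lost without control replicate 3 (0.0615 and 0.0636). The gRNA 1 call was further lost without any 1 of the 6 guide libraries (0.053 to 0.0921), and the gRNA 10 call without any of them other than gRNA 1 replicate 3 (0.0542 to 0.126). NDUFA9, a supernumerary subunit of the quinone module, rose with gRNA 10 from 10.5, 12.5 and 11.8 to 21.1, 20.3 and 21.5 CPM (0.85) and did not pass with gRNA 1 (0.32, adjusted p = 0.0503). NDUFB2 rose with gRNA 1 (0.78) and not with gRNA 10 (0.27), and its antisense gene NDUFB2-AS1 was at 0.74 and -0.37; whether reads of the pair were assigned by strand is not given in the sources used here.

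In the other complexes of 22Rv1, UQCRC1 fell from 537, 417 and 514 CPM to 349, 384 and 314 with gRNA 1 and to 356, 342 and 340 with gRNA 10 (-0.49 and -0.50, edgeR adjusted p = 0.00445 and 0.0044). UQCRC2 was lower with gRNA 1 (-0.43), a call lost without control replicate 2 (adjusted p = 0.0518), and with gRNA 10 was at -0.22, which passed without gRNA 1 replicate 3 (0.00429). Complex IV members NDUFA4 (0.54 and 0.54) and COX6A1 (0.53 and 0.47) rose with both guides. ATP5F1B was at 1873, 1722 and 1802 CPM in control, at 2255, 2393 and 1780 with gRNA 1 and at 2602, 2475 and 2412 with gRNA 10. The gRNA 10 rise of 0.47 passed (adjusted p = 0.00565) and the gRNA 1 value of 0.25 did not (0.0786), but without gRNA 1 replicate 3, its low library, it did (0.000311). SDHD fell with gRNA 1 (-0.40), a call lost without control replicate 2 (0.0659) or gRNA 1 replicate 2 (0.0702). ATP5F1C fell with gRNA 10 (-0.28), a call lost without gRNA 10 replicate 1 (0.06) or 3 (0.0824).

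In DU145 with gRNA 2, 15 of 84 members tested were higher and 2 lower, against 17.1% higher and 17.0% lower of all 14908 genes. The share higher was near that of all genes, and the share lower was under it. The member median was 0.12 against 0.01, and its sign changed under some setting. The libraries labelled gRNA 10, where RIPK2 itself did not pass, had 10 higher and 10 lower, against 20.2% and 19.8% of all genes, with a median of 0.05 against 0.00. These counts rest on few libraries. Leaving out gRNA 2 replicate 3 gave 18 higher and 11 lower with gRNA 2 and 22 higher and 21 lower with gRNA 10, and leaving out gRNA 2 replicate 2 gave 26 higher and 0 lower with gRNA 2 and 13 higher and 16 lower with gRNA 10. Leaving out any 1 of the 3 controls gave 6 higher and 0 lower with gRNA 2, control replicate 2 gave 5 higher and 6 lower with gRNA 10, control replicate 1 gave 6 lower with gRNA 10, and gRNA 10 replicates 1 and 2 gave 4 and 6 lower. In these calls, complex I had 6 higher and 1 lower of 36 with gRNA 2 and 5 higher and 4 lower with gRNA 10.

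The rises with gRNA 2 in DU145 fell in every complex. NDUFB3, a small membrane arm subunit of complex I, went from 22.2, 22.0 and 20.5 CPM to 34.3, 36.4 and 34.4 with gRNA 2 and to 30.0, 26.5 and 25 with gRNA 10, both groups above the control (0.70 and 0.33, edgeR adjusted p = 0.00042 and 0.0178). NDUFV1 rose from 157, 151 and 163 CPM to 252, 198 and 242 (0.56, adjusted p = 0.00248) and to 184, 215 and 201 (0.35, adjusted p = 0.0195), the latter call lost without control replicate 1 (0.0637) or 2 (0.0795) or gRNA 10 replicate 2 (0.082) or 3 (0.0616). SDHD went from 49.1, 52.9 and 49.4 CPM to 68.8, 78.9 and 76.4 with gRNA 2 (0.57, adjusted p = 0.000919) and was at 52.2, 46.0 and 47.5 with gRNA 10 (-0.06). Its gRNA 2 libraries alone stood above the control, the opposite side from its PC3 gRNA 10 libraries.

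ATP5PF, the F6 subunit of the peripheral stalk (chr21:25716503-25735673, minus strand), gave the largest rise among the DU145 libraries labelled gRNA 10. It was at 74.9, 78.4 and 77.5 CPM in control, at 75.5, 70.6 and 106 with gRNA 2 and at 141, 157 and 167 with gRNA 10. Only the gRNA 10 group was clear of the control (1.01, SE 0.14, edgeR adjusted p = 0.000279), and the 106 is the gRNA 2 library that stood apart. ATP5MC2, a c-ring gene, rose with both guides, from 151, 146 and 150 CPM to 199, 164 and 211 (0.36) and to 221, 235 and 241 (0.64). NDUFB4 rose with gRNA 10 alone, from 70.2, 68.3 and 64.5 to 108, 98.9 and 93.3 CPM (0.56, adjusted p = 0.00836). ATP5ME rose with gRNA 2, from 41.4, 35 and 34.3 to 52.1, 43.1 and 74.7 CPM (0.62), a call lost without control replicate 2 (adjusted p = 0.0718) or 3 (0.0759).

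Falls in DU145 were led by NDUFA4L2, which went from 1.92, 2.25 and 1.66 CPM to 0.705, 0.799 and 0.551 with gRNA 10 (-1.5, edgeR adjusted p = 0.00108) and stayed at 2.08, 2.0 and 1.44 with gRNA 2 (-0.07). With gRNA 10, NDUFA11 (-0.71) and UQCR11 (-0.57), both among the genes with shared exons, and NDUFB7 (-0.63) fell; the NDUFB7 call was lost without gRNA 10 replicate 1 (adjusted p = 0.0546). NDUFS3 was at 68.1, 62.4 and 70.0 CPM in control, 56.8, 46.5 and 82.9 with gRNA 2 and 45.5, 46.6 and 47.5 with gRNA 10. The gRNA 10 libraries lay under the control (-0.52, adjusted p = 0.0321). That call was lost when any 1 of the 6 control and gRNA 10 libraries was left out (0.0578 to 0.099). Of the gRNA 2 libraries only the 82.9 lay above the control, and it is replicate 3, which stood apart. Without that library NDUFS3 was lower with gRNA 2 (-0.37, edgeR adjusted p = 0.00436). UQCRC1 fell from 273, 266 and 298 CPM to 240, 193 and 245 (-0.30, adjusted p = 0.0398) and to 188, 210 and 199 (-0.49, adjusted p = 0.00346), and the gRNA 2 call was lost without any 1 of the 3 controls (0.0735 to 0.152), without gRNA 2 replicate 2 (0.0731) or without any 1 gRNA 10 library (0.0565 to 0.0701).

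ATP5F1B in DU145 went opposite ways with the guides. From 1099, 1059 and 1135 CPM it rose to 1427, 1344 and 1370 with gRNA 2 (0.33, edgeR adjusted p = 0.00925) and fell to 936, 919 and 898 with gRNA 10 (-0.26, adjusted p = 0.0237). The groups did not overlap. The rise was lost without control replicate 2 (0.056), and the fall without any 1 of the 6 control and gRNA 10 libraries (0.0569 to 0.106), with the replicate block (0.0545) and with no filter on low counts (0.0574).

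The guides of a line were also compared directly. In PC3, 21 of 83 members were higher and 39 lower with gRNA 10 than with gRNA 2, where 36.9% and 36.5% of all genes were, with a median of -0.13 against -0.00. Behind COX7B2, the widest were ATP5F1E (1.27) and ATP5F1B (0.79) on the higher side and ATP5F1C (-1.19), NDUFA4 (-0.99) and NDUFB1 (-0.86) on the lower. In DU145, 6 of 84 were higher and 15 lower, against 19.6% and 19.2% of all genes (-0.12 against -0.02), with ATP5PF at 0.89, NDUFA5 at -0.66, COX4I1 at -0.63 and SDHD at -0.62. Without gRNA 2 replicate 3 the DU145 counts were 18 higher and 17 lower, and without gRNA 2 replicate 2 they were 4 and 29; leaving out gRNA 10 replicate 1, 2 or 3 gave 3, 2 and 3 higher. In 22Rv1, 3 of 83 were higher (NDUFC2 0.88, NDUFA9 0.54, SDHD 0.39) and 4 lower, led by NDUFB2-AS1 (-1.11) and NDUFB2 (-0.51), against 16.8% and 18.8% of all genes. Without 22Rv1 gRNA 1 replicate 3 there were 10 higher and 6 lower, without control replicate 2 there were 6 higher, and without gRNA 10 replicate 2 or 3 there were 2 lower. The SDHD call was lost without gRNA 1 replicate 2 (edgeR adjusted p = 0.0924) or gRNA 10 replicate 1 (0.0784), 2 (0.0898) or 3 (0.109), and that of NDUFB2 without gRNA 10 replicate 2 (0.0571).

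gRNA 10 was used in all 3 lines, each with its own controls. Of the 82 members tested in all 3 lines, none passed in the same direction in each, where 1.48% of 12800 genes were higher and 1.36% lower in each. In 22Rv1 and DU145, NDUFB9 was higher in both (9.09% of the members higher in 22Rv1 and 10% of those in DU145) and UQCRC1 lower in both (25% and 10%). In 22Rv1 and PC3, ATP5F1B, NDUFA4L2 and NDUFS5 were higher in both (27.3% and 15.8%) and ATP5F1C, NDUFB4 and NDUFB5 lower in both (75% and 6.25%). In DU145 and PC3 no member was higher in both, and NDUFA5, NDUFB7 and NDUFS3 were lower in both (30% and 6.25%). The percentages in brackets are of the members called in a line, not of all members tested. Of the members tested in both 22Rv1 and DU145, 1 of 83 was higher in both and 1 lower. For 22Rv1 and PC3, 3 of 82 were higher and 3 lower, and for DU145 and PC3, 0 of 82 were higher and 3 lower. Over all genes tested, 4.01% were higher and 4.01% lower in both of 22Rv1 and DU145. The shares of all genes were 7.33% and 7.29% in 22Rv1 and PC3, and 6.82% and 6.47% in DU145 and PC3. In each pair of lines and direction, the share of members tested was thus under that of all genes.

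Differences of the guide effect between lines were tested in 1 model of all 27 libraries, with 84 members among 16322 genes. That model takes 1 estimate of the spread per gene, although the lines differed in spread. For gRNA 10, PC3 minus 22Rv1 gave 6 members higher and 32 lower (median -0.19 against -0.01 over all genes), where 23.8% of all genes were higher and 23.8% lower. PC3 minus DU145 gave 12 higher and 31 lower (-0.21 against -0.01), where 24.1% and 23.9% were. DU145 minus 22Rv1 gave 11 higher and 14 lower (-0.05 against 0.02), where 22.6% and 22.1% were. For gRNA 2, PC3 minus DU145 gave 4 higher and 28 lower (-0.21 against -0.00), where 17.8% and 18.0% were. Without the 22Rv1 gRNA 1 and DU145 gRNA 2 libraries that stood apart, the members higher numbered 16 in the gRNA 2 difference, 22 in DU145 minus 22Rv1 and 12 in PC3 minus 22Rv1. The widest of these were NDUFA4L2 (-3.11, SE 0.33, edgeR adjusted p = 3e-08, DU145 minus 22Rv1), ATP5MF (-1.98 and -1.95 in DU145 and PC3 minus 22Rv1) and NDUFC2 (-1.38, PC3 minus DU145). NDUFB4 differed by 1.22 (SE 0.15, adjusted p = 2.65e-07) between DU145 and 22Rv1, where its changes with gRNA 10 were 0.56 and -0.66.

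Changes of members were set beside those of their chromosomal neighbours, a comparison chosen after values were seen. In PC3, 8 tested members lie on chromosome 1, among them ATP5PB, SDHB and UQCRH. All 8 were higher with gRNA 2 and 7 of 8 with gRNA 10, with medians of 0.40 and 0.30. Of the other 1450 tested genes of chromosome 1, 74.7% and 70.2% were higher, with medians of 0.44 and 0.43. Off chromosome 1, 10 of 75 members were higher and 36 lower with gRNA 2, and 12 higher and 48 lower with gRNA 10 (medians -0.12 and -0.24), while of the other 12801 genes there 27.4% were higher and 34.5% lower with gRNA 2, and 34.5% and 38.3% with gRNA 10 (medians -0.03 and -0.03).

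In 22Rv1 the members of chromosome 3 fell. These 3, NDUFB4, NDUFB5 and UQCRC1, were lower with both guides, and so were 63.4% and 64.2% of the other 857 tested genes of the chromosome (medians -0.59 and -0.62). On chromosome 7, 4 of 5 members were higher with gRNA 1 and 2 of 5 with gRNA 10, beside 61.2% and 46.1% of the other genes. On chromosome 12, 3 of 6 and 5 of 6 were higher, beside 50.9% and 53.5%. Elsewhere 4 of 69 members were higher and 4 lower with gRNA 1, and 4 higher and 1 lower with gRNA 10. Of the other genes there, 23.3% were higher and 22.3% lower with gRNA 1, and 17.5% and 19.3% with gRNA 10. In the DU145 libraries labelled gRNA 10, 54.2% of the other genes of chromosome 16 were lower (median -0.43). Its 3 members had a median of -0.31 and none passed, though COX4I1 (-0.38) did when only the groups compared were fitted (adjusted p = 5.44e-07). On chromosome 19, 1 of 11 members was higher and 3 lower (median -0.27), beside 10.8% and 24.2% of its other genes (-0.17).

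Across genes, the change of a member and the median change of the genes within 5 Mb had Pearson's r of 0.63 and 0.62 in 22Rv1 (83 members), 0.47 and 0.47 in DU145 (84) and 0.52 and 0.43 in PC3 (83), with Spearman's rho of 0.52, 0.41, 0.41, 0.54, 0.62 and 0.54 in the same order; genes are not independent replicates, and members and neighbours share libraries. Some members departed from their surroundings. ATP5F1C fell by 1.0 with gRNA 10 in PC3 while its 33 neighbours had a median of 1.33, and ATP5F1E rose by 0.93 while its 78 neighbours had -0.41. NDUFS8 in 22Rv1 was at 0.90 with gRNA 1 beside a median of 0.16 over 174 neighbours, and ATP5MF at 1.59 beside 0.71 over 112. NDUFB4 in 22Rv1 (-0.87) changed in the direction of its 51 neighbours (-0.69). NDUFS3 in PC3 with gRNA 2 (-0.89) fell further than the median of its 45 neighbours (-0.50), of which 41 were lower. Copy number was not measured here.

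**Figure D5:**
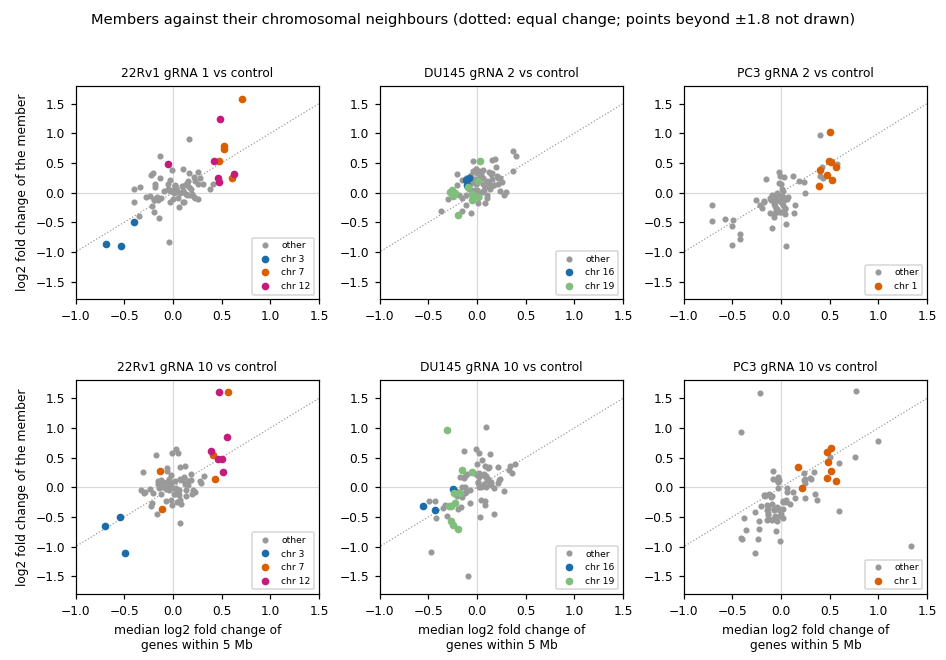
Log2 fold change of each tested member against the median log2 fold change of the other tested genes within 5 Mb, for each guide against control; the dotted line marks equal change, colours mark the chromosomes described in the text, and points beyond ±1.8, such as COX7B2 (-3.54), are not drawn. Chromosome 1 members of PC3 lie to the upper right and chromosome 3 members of 22Rv1 to the lower left.

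Many of these genes share a short promoter region with a gene on the other strand. Among member and neighbour pairs whose starts lie within 1000 bases on opposite strands, both genes passed in 15 of 29 pairs with either guide in PC3, in the same direction in 13 with gRNA 2 and in 12 with gRNA 10. Among the 1002 other such pairs of coding genes tested there, both passed in 40.9% and 51.9%, and in the same direction in 33.0% and 42.9%. In the other lines both passed in 1 of 28 pairs with either guide in 22Rv1 (22.5% and 15.1% of the other pairs), and in 3 of 28 with gRNA 2 and 2 of 28 with gRNA 10 in DU145 (13.7% and 16.6%). ATP5F1C and KIN, a DNA repair gene, start 148 bases apart, and with gRNA 10 in PC3 they fell by 1.0 and 0.94, KIN from 10.7 to 5.56 CPM; with gRNA 2 they were at 0.19 and 0.03. SDHD fell together with TIMM8B, a mitochondrial import gene whose start lies 25 bases from its own (-0.88 and -0.79). NDUFB1 rose with CPSF2, a gene of messenger RNA 3′ end processing, in PC3 with gRNA 2 (0.98 and 0.89), and NDUFB5 fell with MRPL47, of the mitochondrial ribosome, in 22Rv1 (-0.90 and -0.80 with gRNA 1, -1.11 and -0.86 with gRNA 10). ATP5F1A and HAUS1, a spindle gene, went opposite ways in PC3 with gRNA 10 (-0.58 and 0.60).

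ATP5PF and GABPA, an ETS factor gene, start 1103 bases apart on chromosome 21 and rose together in the DU145 libraries labelled gRNA 10. The distance is over the limit for the pairs counted above. The genes overlap on opposite strands: GABPA starts at 25734570, within ATP5PF (25716503-25735673). Of the exon bases of ATP5PF, 23.05% are shared with genes on either strand. The values of the pair are thus uncertain if the counting ignored the strand, and whether they rose separately was not tested. GABPA went from 36.2, 38.9 and 36.8 CPM to 117, 108 and 111 (1.59, SE 0.11, edgeR adjusted p = 3.09e-06), and was at 38.4, 50.2 and 40.4 with gRNA 2. Members were also grouped by motif for PC3 gRNA 10. Those with the NRF1 motif had 3 higher and 10 lower of 13 (median -0.38) and those without 9 and 29 of 51 (-0.18); with the ETS motif 3 and 15 of 20 (-0.28) and without 9 and 24 of 44 (-0.20); with the YY1 motif 4 and 5 of 11 (0.07) and without 8 and 34 of 53 (-0.25). With gRNA 2 in PC3 the NRF1 groups had medians of -0.11 with the motif and -0.14 without, and 6 of 13 and 23 of 51 were lower. In the DU145 libraries labelled gRNA 10, where GABPA rose, members with the ETS motif had 1 higher and 3 lower of 20 (median -0.06). Members without it had 7 higher and 3 lower of 45 there (0.12). These are descriptions with no test of the difference.

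Other genes of the pathway were counted from lists of known function, to be read against the shares of all genes: 32.1% higher and 31.5% lower with gRNA 2 and 37.9% and 35.6% with gRNA 10 in PC3, 17.1% and 17.0%, and 20.2% and 19.8% in DU145, and 25.6% and 22.9%, and 20.0% and 20.6% in 22Rv1. Assembly factors, which build the complexes, had 8 higher and 22 lower of 52 in PC3 with gRNA 2 and 11 higher and 29 lower with gRNA 10 (medians -0.09 and -0.24), among them DMAC2L (-1.38) and ECSIT (-1.36) with gRNA 10. In DU145 they had 12 higher and 2 lower of 52 with gRNA 2 and 6 and 7 with gRNA 10, and in 22Rv1 8 and 5, and 5 and 10. The largest in the other lines were TTC19 (1.40, gRNA 2) and ATPAF2 (1.16, gRNA 10) in DU145 and COA3 (0.96) and DMAC1 (-0.94) in 22Rv1. Of the carriers and subunits that the name pattern leaves out, 1 was higher and 2 lower of 3 in PC3 with gRNA 10, with CYCS at -0.68.

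The 13 mitochondrially encoded subunits, partners of the nuclear ones, had 11 lower and 0 higher in PC3 with gRNA 10 (median -0.55) and 6 lower and 4 higher with gRNA 2. In DU145, 11 and 13 of 13 were higher and none lower, and in 22Rv1 8 were higher with gRNA 1 and none passed with gRNA 10. Without replicate 3 of 22Rv1 gRNA 1, 2 were higher with gRNA 1, and 4 were higher and 1 lower with gRNA 10. Their summed level was at 95.5% and 65.7% of control in PC3 and at 190% and 208% in DU145, where it was at 155% with gRNA 2 without replicate 3. In 22Rv1 it was at 738% with gRNA 1, at 188% without replicate 3, and at 191% with gRNA 10. These 22Rv1 percentages are raised by a low control library: the controls were at 4365, 10672 and 11110 CPM. The gRNA 10 libraries were at 15818, 17746 and 16416 CPM. The nuclear and mitochondrial sets thus both leaned down in PC3 with gRNA 10.

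Tricarboxylic acid cycle genes had 3 higher and 6 lower of 14 in PC3 with gRNA 2 and 2 higher and 9 lower with gRNA 10, where MDH2 (-1.21) and DLST (-0.80) fell furthest. In DU145 they had 6 higher and 1 lower with gRNA 2 and 4 and 2 with gRNA 10, and in 22Rv1 3 and 1, and 3 and 2. Mitochondrial ribosome genes had 15 higher and 24 lower of 77 and 19 higher and 39 lower in PC3, where the 31.2% lower with gRNA 2 was near the share of all genes, 15 and 1, and 8 and 9 in DU145, and 12 and 10, and 5 and 13 in 22Rv1. Regulators of mitochondrial biogenesis had 3 higher and 5 lower, and 1 higher and 5 lower of 13 in PC3, with PPARGC1B, a coactivator, at -1.27 with gRNA 10, and 2 higher and 6 lower, and 0 higher and 4 lower of 14 in 22Rv1. In DU145 they had 1 higher and 1 lower, and 2 higher and 3 lower of 13, GABPA among the higher. PPARGC1A, the coactivator best known for driving mitochondrial genes, was at 1.35 with gRNA 1 and -4.03 with gRNA 10 in 22Rv1.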

How the data were processed

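Total RNA was extracted with an RNeasy kit and sequenced as strand-specific mRNA libraries (labels' protocols). For each line the authors deposited a table of whole-number read counts per gene symbol; the submitters' processing notes name FastQC, STAR, edgeR and the genome build hg38, without versions. The counting program, annotation and strand setting are not given in the sources used here, and they decide how reads of overlapping genes were counted. Rows listed more than once were 6 in 22Rv1, 2 in DU145 and 2 in PC3, and no row lacked a symbol.

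From the deposited counts, all 9 libraries of a line were fitted together by group alone with edgeR 4.0.16 (R 4.3.3, limma 3.58.1): TMM scaling, the filterByExpr filter (minimum count 10, minimum total 15), and the robust quasi-likelihood test, with adjustment over all genes tested. The script was tested on simulated data. Positions are from GENCODE 29 (GRCh38), promoters from RefSeq (GRCh38.p14); all 90 members matched the former and 73 the latter.

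The members and gene lists were chosen with earlier results of these data known. Named members were core subunits and tissue isoforms, the 4 largest rises and falls per guide comparison, the 3 largest differences between guides and between lines (passed, group mean of at least 100 counts), and the 2 largest called changes per line from each other list; further members were chosen for their role after their values were seen. Pairs of neighbouring genes and the chromosome counts were likewise chosen after values were seen. A core subunit and a marker from the fixed lists are not reported here by name. Alternatives were DESeq2 1.42.0, RLE scaling, no filter or at least 10 counts in every library, fits of only the groups compared, fits without mitochondrial symbols, a replicate block, and leaving out each library.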

Additional observations from a re-analysis of the deposited data

Results flagged for a closer look

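The effect of a guide differed between lines for the members below (edgeR quasi-likelihood test of the difference itself, in 1 model of all 27 libraries, adjusted over 16322 genes). The model takes 1 estimate of the spread per gene for all lines. Their common coefficients of variation were 14.2% in 22Rv1, 12.3% in DU145 and 3.55% in PC3. Spread in 22Rv1 and DU145 can thus be understated, and adjusted p-values too small where these lines are compared. For gRNA 10, DU145 minus 22Rv1 was higher for NDUFB4 (1.22, SE 0.15, adjusted p = 2.65e-07), ATP5PF (1.08, SE 0.14, adjusted p = 8.15e-07) and NDUFB5 (1.01, SE 0.18, adjusted p = 5.31e-05). It was lower for NDUFA4L2 (-3.11, SE 0.33, adjusted p = 3e-08), ATP5MF (-1.98, SE 0.18, adjusted p = 2.49e-09) and NDUFB7 (-0.98, SE 0.20, adjusted p = 0.000273). RIPK2 itself did not pass in the DU145 libraries labelled gRNA 10.

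For gRNA 10, PC3 minus 22Rv1 was higher for ATP5F1E (0.78, SE 0.16, adjusted p = 0.00018), NDUFB5 (0.66, SE 0.18, adjusted p = 0.00358) and ATP5IF1 (0.65, SE 0.16, adjusted p = 0.00177), and lower for ATP5MF (-1.95, SE 0.19, adjusted p = 3.45e-09), NDUFA9 (-1.45, SE 0.21, adjusted p = 2.01e-06) and NDUFA4 (-1.30, SE 0.12, adjusted p = 1.61e-09). The same guide in PC3 minus DU145 gave higher values for ATP5IF1 (0.96, SE 0.16, adjusted p = 2.71e-05), NDUFA11 (0.86, SE 0.25, adjusted p = 0.00611) and NDUFB10 (0.80, SE 0.16, adjusted p = 0.000178), and lower values for NDUFC2 (-1.38, SE 0.20, adjusted p = 1.87e-06), ATP5PF (-1.19, SE 0.14, adjusted p = 1.38e-07) and ATP5F1C (-1.11, SE 0.12, adjusted p = 1.46e-08).

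For gRNA 2, PC3 minus DU145 was higher for NDUFB1 (0.95, SE 0.16, adjusted p = 2.86e-05), UQCRHL (0.91, SE 0.22, adjusted p = 0.00196) and UQCRC1 (0.72, SE 0.13, adjusted p = 0.000123), and lower for NDUFB3 (-1.17, SE 0.13, adjusted p = 6.32e-08), ATP5ME (-0.98, SE 0.21, adjusted p = 0.000616) and COX7C (-0.94, SE 0.17, adjusted p = 8.47e-05). ATP5MF and NDUFA11 share over 40% of the exon bases of their main transcripts with other genes, and UQCRHL is a near-copy of UQCRH, so their values are uncertain. ATP5ME shares 61.6% of its exon bases with genes on either strand, so its value is uncertain if the counting ignored the strand.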

How the results depend on the processing

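No change that passed the test was reversed; 19 of 174 values of single members, none of which passed, crossed 0 under some setting, as did the member medians of 22Rv1 gRNA 10 and DU145 gRNA 2. Of the member counts under other settings, 285 stayed within 1.5 times the reported count and 47 moved further; of the values of single members, 2825 stayed on their side of the threshold, 160 lost their call and 37 gained one. Other scalings moved the median of all genes by less than 0.02. PC3 counts did not move by over 1.5 times in any setting run.

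Fitting only the groups compared moved 22Rv1 lower from 7 to 4 with gRNA 1, and 22Rv1 gRNA 10 from 11 to 18 higher and 4 to 9 lower; DU145 gRNA 2 from 15 to 6 higher and 2 to 0 lower; DU145 gRNA 10 from 10 to 28 higher and 10 to 23 lower; and DU145 guide against guide from 6 to 3 higher. No filter on low counts gave 0 lower with DU145 gRNA 2, 3 higher between the DU145 guides and 2 lower between the 22Rv1 guides, and DESeq2 gave 5 higher between the 22Rv1 guides. Without both libraries that stood apart, the differences between lines had 22 higher (DU145 minus 22Rv1), 12 (PC3 minus 22Rv1) and 16 (gRNA 2, PC3 minus DU145).

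Leaving out 1 library at a time gave these ranges of higher and lower members: 22Rv1 gRNA 1, 9 to 15 and 6 to 9; gRNA 10, 8 to 18 and 3 to 9; between guides, 2 to 10 and 2 to 6. DU145 gRNA 2 gave 6 to 26 and 0 to 11, gRNA 10 gave 5 to 22 and 4 to 21, and guide against guide 2 to 18 and 11 to 29. PC3 gRNA 2 gave 17 to 20 and 24 to 40, gRNA 10 gave 18 to 22 and 39 to 49, and guide against guide 18 to 23 and 32 to 40. The median of 22Rv1 gRNA 1 went to 0.0034 without control replicate 2.

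The replicate numbers were shared between groups, but same-numbered libraries did not all deviate together. The number is that of the sample titles, and for some samples the library names carry another. Pairing by the library names was not tested, so whether libraries of different groups were paired is not known. With the number as a replicate block, 22Rv1 had 11 and 6, 11 and 5, and 3 and 4 members higher and lower with gRNA 1, gRNA 10 and between guides, DU145 12 and 1, 10 and 8, and 4 and 14, and PC3 18 and 36, 20 and 49, and 22 and 40. Low counts limit what could be called for NDUFV2 and for the tissue isoforms, other than COX7B2 in PC3.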
